A study of Mus musculus with 6 samples.

Results

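The 5 genes described here encode the chains of the class II peptide editors of the mouse: H2-Oa and H2-Ob, the alpha and beta chains of H2-O, and H2-DMa, H2-DMb1 and H2-DMb2, the alpha chain and the alternative beta chains of H2-DM. They were chosen by symbol from the 32285 genes counted, and all 5 were found. CD4 T cells were sorted from the spleens of 3 H2-O KO mice (KO) and of 3 H2-O WT controls (WT), giving 1 library of 10x Genomics 5' single-cell RNA-seq per mouse. By the labels, every mouse was of strain C57BL6/J, 8 weeks old and naive, and the sort took CD3+ cells that were CD4+, B220- and NK1.1-. The genotype label is H2-O Knockout or wild type, and the sources used here do not say which chain gene was disrupted. Nothing beyond the replicate number of each genotype describes the individual mice.

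MHC class II molecules are loaded with peptide in late endosomes of antigen-presenting cells. H2-DM, a heterodimer related to class II itself, removes the CLIP fragment of the invariant chain (Cd74) and keeps exchanging peptides until a stable one is bound. H2-O binds H2-DM and inhibits it, so the balance of the 2 editors shapes the peptides that are shown. H2-O is best known from B cells, some dendritic cells and the thymic medulla, whereas H2-DM is found wherever class II is made. Mouse CD4 T cells are not known for class II presentation, so low levels of these RNAs were to be looked for in the sorted cells beside high ones in the few other cells.

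All 5 genes lie on the + strand of chromosome 17 (GRCm38) within 162 kb. H2-Oa (ENSMUSG00000024334) runs from 34092340 to 34095234, H2-DMa (ENSMUSG00000037649) from 34119541 to 34139101, H2-DMb2 (ENSMUSG00000037548) from 34143307 to 34151555, H2-DMb1 (ENSMUSG00000079547) from 34153072 to 34160230 and H2-Ob (ENSMUSG00000041538) from 34238903 to 34254414. The whole of H2-Oa, 2895 bases, is covered on the opposite strand by the antisense gene BC051537, and 3094 bases of H2-DMa by Brd2. The sources used here do not say whether counting used strand. H2-DMb1 and H2-DMb2 are near copies: of the 91-base windows of H2-DMb1 transcripts, the length of a read, 13% occur unchanged in H2-DMb2 transcripts, so the split of reads between the 2 genes is uncertain there.

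The promoters are shown because the members differ in 2 strings of letters from the class II promoter module. Its X box and Y box are where RFX, NF-Y and CIITA assemble. Each window holds 250 bases before and 50 after a transcript start (RefSeq, GRCm38.p6). Capitals mark AGCAAC, taken here as the core of the X box, and GATTGG, the Y box, searched on both strands. The 2 strings do not overlap, and they were chosen after the promoters had been read.
H2-Oa promoter, chr17:34092129-34092428, + strand: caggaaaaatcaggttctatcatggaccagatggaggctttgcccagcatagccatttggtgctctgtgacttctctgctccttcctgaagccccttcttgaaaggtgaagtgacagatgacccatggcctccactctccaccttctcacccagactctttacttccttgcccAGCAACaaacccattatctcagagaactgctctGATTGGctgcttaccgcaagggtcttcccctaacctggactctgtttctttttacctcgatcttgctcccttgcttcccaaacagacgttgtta
H2-Ob promoter, chr17:34238655-34238954, + strand: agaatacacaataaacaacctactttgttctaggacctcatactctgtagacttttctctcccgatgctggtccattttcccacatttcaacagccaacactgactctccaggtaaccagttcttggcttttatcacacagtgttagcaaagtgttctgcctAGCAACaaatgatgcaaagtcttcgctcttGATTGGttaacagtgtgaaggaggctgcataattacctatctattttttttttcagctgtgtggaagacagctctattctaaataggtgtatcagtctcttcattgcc
H2-DMb1 promoter, chr17:34152941-34153240, + strand: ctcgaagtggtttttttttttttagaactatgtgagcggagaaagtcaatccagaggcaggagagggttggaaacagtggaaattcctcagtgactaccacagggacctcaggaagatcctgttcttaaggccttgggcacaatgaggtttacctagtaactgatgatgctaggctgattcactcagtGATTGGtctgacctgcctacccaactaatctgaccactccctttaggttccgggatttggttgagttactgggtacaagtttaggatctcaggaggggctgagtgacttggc
H2-DMb2 promoter, chr17:34144999-34145298, + strand: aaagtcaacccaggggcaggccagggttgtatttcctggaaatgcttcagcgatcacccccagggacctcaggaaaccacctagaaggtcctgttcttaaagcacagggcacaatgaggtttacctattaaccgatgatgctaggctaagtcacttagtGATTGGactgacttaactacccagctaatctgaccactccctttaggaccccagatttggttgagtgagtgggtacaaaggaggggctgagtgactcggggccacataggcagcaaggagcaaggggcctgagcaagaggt
H2-DMa promoter, chr17:34122582-34122881, + strand: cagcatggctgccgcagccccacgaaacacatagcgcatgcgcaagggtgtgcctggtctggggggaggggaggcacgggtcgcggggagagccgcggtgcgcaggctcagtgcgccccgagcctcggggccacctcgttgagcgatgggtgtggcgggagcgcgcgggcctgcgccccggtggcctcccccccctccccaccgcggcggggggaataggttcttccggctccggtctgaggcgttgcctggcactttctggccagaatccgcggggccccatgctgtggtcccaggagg
The H2-Oa and H2-Ob windows held both strings on the + strand, with 27 and 24 bases between them. Of the 2 strings, the H2-DMb1 and H2-DMb2 windows held GATTGG alone. Before it stood cctagtaac in H2-DMb1 and cctattaac in H2-DMb2, close in letters to cctAGCAAC of H2-Ob. Other spellings of the X box were not searched for, so these windows may hold one. The H2-DMa window shown held neither string, and a second H2-DMa entry further downstream held the Y box string. The window shown contains the start of Brd2 on the opposite strand, at 34122634, and lies downstream of the H2-DMa gene start at 34119541. No window at that gene start was read, so the H2-DMa windows do not show whether the gene lacks the 2 strings. Over 32851 promoter windows of the same length, 14.8% held AGCAAC, 16.1% held GATTGG and 2.64% held both. AGCAAC followed on its own strand by GATTGG after 15 to 30 bases was found in 34 windows, 0.103% of all. This range holds the 27 and 24 bases of H2-Oa and H2-Ob, and the strings came from the same promoters. The share is thus no test of them. A match of letters is a description, and binding of no factor was measured.

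Of 38073 called cells, 29738 were kept, 17746 in KO and 11992 in WT. Counts are of unique molecular identifiers (UMIs), 1 per captured RNA molecule, summed per library over a set of cells and given as CPM, the UMIs of a gene per 1000000 UMIs of that set. Kept cells held 7940665 to 37627804 UMIs per library. Cells with under 10% of their UMIs from ribosomal protein genes made up 3.24% to 16.1% of kept cells in KO libraries and 22.0% to 47.5% in WT libraries, so RNA quality moved with genotype. Pairs of libraries shared 21 to 99 cell barcodes. Foxp3+ cells (2607, a UMI of the Treg factor Foxp3 and none of the other defining genes), Cd79a+ cells (239, a UMI of the B cell receptor gene Cd79a) and C1qb+ cells (251, a UMI of the macrophage complement gene C1qb) were taken by 1 UMI, and 26642 cells with none of these are called other T cells. The sums alone do not tell fewer expressing cells from less RNA per cell, so shares of cells with a UMI are given beside some of them.

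The sets were checked by their markers. The 10 B cell genes summed to 2557 to 5784 CPM in Cd79a+ cells, 23.7 to 36.5 CPM in Foxp3+ cells and 6.25 to 11.1 CPM in other T cells. The 10 red pulp macrophage genes reached 3373 to 5261 CPM in C1qb+ cells of KO and 4718 to 11855 CPM in those of WT. C1qb+ cells were not all macrophages: the 7 T cell genes stood at 3117 to 3561 CPM there in KO and 1778 to 2563 CPM in WT. The make-up of this set thus differed with genotype. Cd79a+ cells were not all B cells: 10.0% to 52.4% of them per library lacked any T cell receptor or CD3 UMI, and the 7 T cell genes stood at 1928 to 2704 CPM there.

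The H2-O chains were measured first, as the genes of the knockout. In all kept cells H2-Oa stood at 4.54, 3.53 and 3.79 CPM in KO, here and below in the order of replicates 1, 2 and 3, and at 5.29, 6.29 and 8.42 CPM in WT. H2-Oa fell by 0.68 on the log2 scale (SE 0.20, edgeR quasi-likelihood test, adjusted p = 0.0237). H2-Ob stood at 27.1 to 34.1 CPM in KO and 19.3 to 21.3 CPM in WT, so RNA of both H2-O genes was counted in every KO library. A 5' tag can lie outside the disrupted part of a gene, so these counts do not check the knockout. The 3 H2-DM genes and H2-Ob were higher in KO over all kept cells, which makes 5 of 5 members called, where 34.9% of all 12481 genes tested were called, 15.9% higher and 19% lower in KO. The 10 B cell genes stood at 49.7 to 84.8 CPM in KO and 29.3 to 49.99 CPM in WT over the same cells, and their part in the member calls was not tested. Over 16 repeats with other settings or without 1 library, H2-Oa lost this call in 4, H2-DMb1 in 4 and H2-DMb2 in 8. H2-Oa lost it without KO replicate 2 or 3 or WT replicate 3 (edgeR, adjusted p = 0.0813, 0.0575 and 0.0948) and with up to 10% mitochondrial UMIs.

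The difference in H2-Oa was then read in each set of cells. In Foxp3+ cells H2-Oa stood at 1.73, 0.968 and 2.19 CPM in the KO replicates, from 6, 2 and 6 UMIs. In WT it stood at 12.2, 16.4 and 22.2 CPM, from 8, 30 and 30 UMIs. Every WT library was above every KO library, and libraries did not overlap for 26.1% of the genes tested there. H2-Oa was lower in KO by a log2 fold change of -3.29 (SE 0.39, edgeR, adjusted p = 0.000845). Of 9381 genes tested in Foxp3+ cells, 2.85% were called, and 1.98% were called lower in KO. H2-Oa passed the low-count filter through its WT libraries. Without that filter the log2 fold change was -3.27 (edgeR, adjusted p = 5.4e-12). More genes were called at that setting as well, so its smaller p is not read as stronger evidence. Over cells with at least 10% ribosomal UMIs the log2 fold change of H2-Oa was -3.40 (edgeR, adjusted p = 0.000641). Ms4a1, which encodes the B cell protein CD20, had 7 UMIs in all Foxp3+ cells together, where H2-Oa had 82. Cells with a Cd79a UMI were left out of this set, which by itself lowers counts of B cell genes. Cd79b stood at 14.0 to 23.0 CPM in Foxp3+ cells with the genotypes overlapping, and at 1.44 to 2.40 CPM in other T cells. The part of B cell RNA in these H2-Oa counts was not tested.

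In other T cells the genotypes overlapped. H2-Oa stood at 4.69, 3.38 and 3.97 CPM in KO and 4.03, 4.62 and 5.46 CPM in WT, a log2 fold change of -0.15 (SE 0.20, edgeR, adjusted p = 0.593). The genotype difference in Foxp3+ cells exceeded that in other T cells by -3.17 on the log2 scale (SE 0.41, edgeR with library as a block, adjusted p = 0.00219), a contrast added after the data were seen. Among 11088 genes, 0.00902%, H2-Oa alone, passed this test of the difference. Leaving out KO replicate 1 gave -3.09 and an adjusted p of 0.102, and no gene passed. For H2-Ob and H2-DMa the same difference was 0.08 (SE 0.20, edgeR, adjusted p = 0.963) and -0.30 (SE 0.18, edgeR, adjusted p = 0.746).

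Other T cells were then split by how many of 4 further Treg markers (Il2ra, Ctla4, Ikzf2 and Tnfrsf4) had a UMI, since single cells often miss Foxp3. Among cells with none, H2-Oa stood at 3.46 to 4.32 CPM in KO and 3.10 to 4.33 CPM in WT. Among cells with 3 or more, 499 in KO and 295 in WT, it stood at 3.73, 2.13 and 3.50 CPM in KO and at 21.6, 31.6 and 10.0 CPM in WT. The genotypes did not overlap among these cells, at the smallest p that 3 against 3 allows (exact two-sided permutation test, p = 0.1), from 8 and 24 UMIs. Over all other T cells 50.1% of the genes tested did not overlap, and the share for these cells is not given here. H2-Ob showed no such rise with the markers in either genotype, at 26.8 ± 6.69 (SD, n = 3) and 16.4 ± 13.4 CPM (SD, n = 3) with 3 or more of them.

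**Figure D1:**
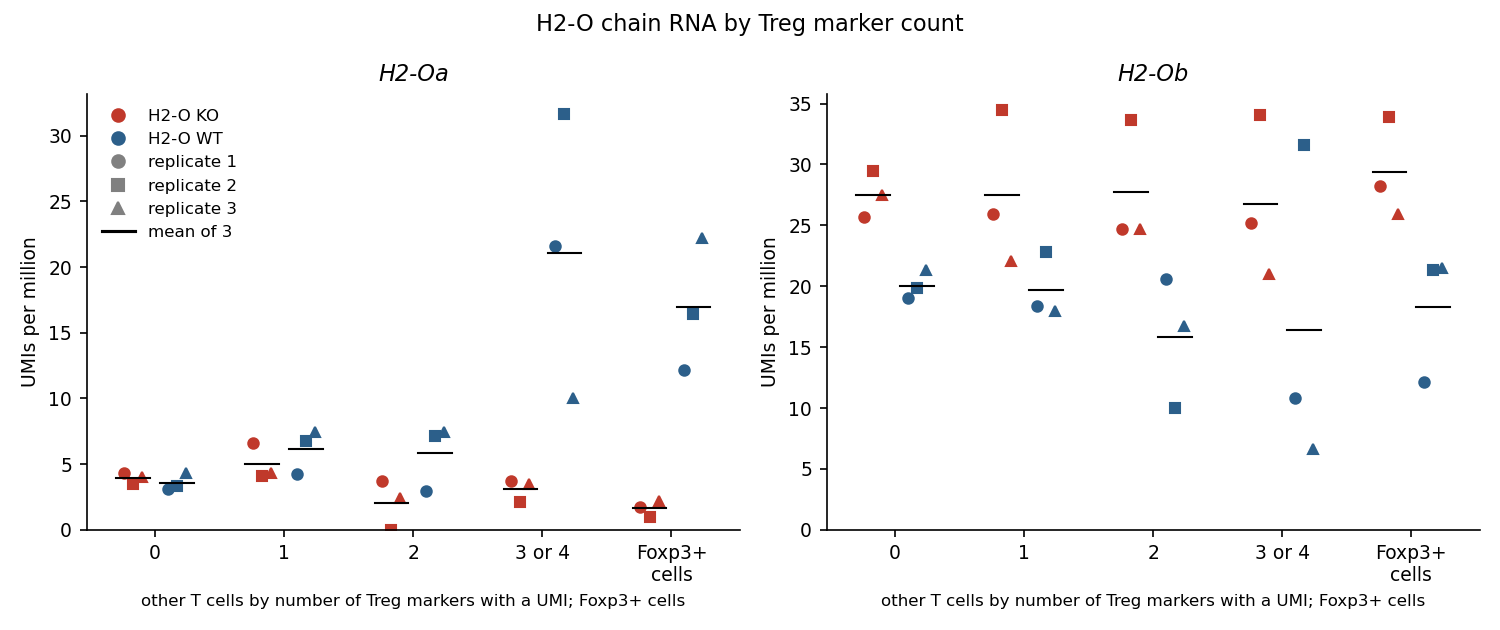
H2-Oa and H2-Ob RNA (y axes, CPM) in other T cells grouped by the number of Treg markers with a UMI, and in Foxp3+ cells, 1 point per library with the mean of 3 as a line. H2-Oa was similar in both genotypes at 0 markers and stood at 10.0 to 31.6 CPM in WT against 2.13 to 3.73 CPM in KO at 3 or more.

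Other T cells were also split by single genes, after the data were seen. In cells with a UMI of Izumo1r, known from Treg and follicular helper cells, H2-Oa stood at 5.01, 3.66 and 3.55 CPM in KO and 7.67, 7.59 and 8.43 CPM in WT. In cells with a UMI of Cxcr5, the follicular homing receptor, it stood at 3.51, 0 and 2.19 CPM in KO and 15.1, 4.18 and 13.2 CPM in WT, from 3 and 7 UMIs. The genotypes did not overlap in either subset (exact two-sided permutation test, p = 0.1 each), whereas they overlapped in cells with a UMI of Ly6c1, at 4.12 ± 0.19 and 3.44 ± 0.88 CPM (SD, n = 3 each). The share of all genes without overlap is not given for these subsets.

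Within WT libraries H2-Oa was higher in Foxp3+ than in other T cells by 1.62 on the log2(CPM + 1) scale, and within KO libraries it was lower by -0.95. Shares of cells gave the same order. With every cell thinned to 1500 UMIs, 0.261% ± 0.230 (SD, n = 3) of Foxp3+ cells had an H2-Oa UMI in KO and 2.10% ± 1.69 (SD, n = 3) in WT (exact two-sided permutation test, p = 0.1, adjusted p = 0.357 over 25 shares). The WT replicates stood at 1.42%, 0.855% and 4.03%, and the difference of -1.84 percentage points became -0.875 without WT replicate 3. Thinning left out 79 and 91 shallower cells, and unthinned shares were 0.763% ± 0.256 and 5.62% ± 1.69 (SD, n = 3 each). From other T cells thinning left out more, 1148 cells in KO and 2248 in WT. Other T cells gave 0.553% ± 0.184 in KO and 0.538% ± 0.0342 in WT after thinning (SD, n = 3 each). The share in KO Foxp3+ cells was thus no higher than in other T cells.

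Cells with several H2-Oa UMIs were rarer in KO when the cells of the 3 libraries of a genotype were pooled. The spread between mice is not shown by these counts. Of kept cells, 16 of 17746 had 2 or more in KO, with at most 3 in a cell, and 49 of 11992 in WT. Of the 49, 14 held Foxp3, 13 held Cd79a and 23 held none of the defining genes, where a cell could hold more than 1 of these. Of the 16, none held Foxp3 and 1 held Cd79a. A single cell of WT replicate 3 had 11 H2-Oa UMIs. It also had 291 Cd74 UMIs, 4 of Itgax, the dendritic cell integrin CD11c, 11 of Ccl5, a chemokine of cytotoxic cells, 1 of Zbtb16, a factor of NKT cells, and 1 T cell receptor or CD3 UMI. Without this cell the H2-Oa difference in all kept cells was -0.63 (edgeR, adjusted p = 0.0252).

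Cd79a+ cells held the highest H2-Oa. It stood at 20.6, 32.6 and 11.4 CPM in KO, from 6, 8 and 2 UMIs, and at 92.0, 80.7 and 149 CPM in WT, from 5, 16 and 24 UMIs. The groups did not overlap, and the log2 fold change was -2.24 (SE 0.43, edgeR, adjusted p = 0.00998), where 1.79% of 3136 genes were called, 0.797% higher and 0.989% lower in KO, and 22.4% did not overlap. Here too H2-Oa passed the filter through WT, and without that filter the log2 fold change was -2.18 (edgeR, adjusted p = 0.000171). Again more genes were called without the filter, so the smaller p is not read as stronger evidence. Leaving out WT replicate 3, replicate 2 or KO replicate 1 ended the call, with adjusted p-values of 0.234, 0.0599 and 0.0501. B cell genes stood the other way round, at 5333 to 5784 CPM in KO and 2557 to 3669 CPM in WT. Among cells with 2 Cd79a UMIs or more, H2-Oa stood at 22.1, 64.5 and 26.5 CPM in KO and 347, 228 and 480.4 CPM in WT. The difference against other T cells was -2.03 (SE 0.72, edgeR with library as a block, adjusted p = 0.510), where 0.122% of 10638 genes were called, and with 2 Cd79a UMIs or more it was -2.67 (edgeR with library as a block, adjusted p = 0.0204).

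BC051537, the antisense gene over H2-Oa, was higher in KO in other T cells, at 2.58, 3.44 and 1.83 CPM against 0.417, 0.746 and 0.213 CPM (log2 fold change 2.46, SE 0.43, edgeR, adjusted p = 0.00302). It had no UMI in Cd79a+ cells of any library. Of 277 other T cells with H2-Oa in KO, 3 also held BC051537, and 1 of 162 in WT. Its part in the H2-Oa counts of other T cells was not tested.

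H2-Ob, the partner chain, moved in the opposite direction. In other T cells it stood at 25.6, 30.8 and 26.0 CPM in KO and 18.6, 20.2 and 19.6 CPM in WT, with no overlap. The log2 fold change was 0.56 (SE 0.10, edgeR, adjusted p = 0.00301). In these cells 35.8% of 12148 genes were called, 16.3% higher and 19.5% lower in KO, and 50.1% did not overlap, so a call there sets H2-Ob little apart. Over cells with at least 10% ribosomal UMIs the log2 fold change was 0.40 (edgeR, adjusted p = 0.0250), and over cells under 10% it was 1.01 (edgeR, adjusted p = 0.0283). After thinning, 3.80% ± 0.359 of other T cells had an H2-Ob UMI in KO and 2.64% ± 0.429 in WT (SD, n = 3 each, exact permutation test, p = 0.1, adjusted p = 0.357). Thinning left out 1148 shallower cells in KO and 2248 in WT, and unthinned shares were 10.6% ± 1.98 and 6.43% ± 1.87 (SD, n = 3 each).

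In Foxp3+ cells H2-Ob stood at 28.2, 33.9 and 25.9 CPM in KO and 12.2, 21.3 and 21.5 CPM in WT. The libraries did not overlap, and the difference of 0.61 did not pass (SE 0.21, edgeR, adjusted p = 0.127). In Cd79a+ cells H2-Ob stood at 327, 265 and 188 CPM in KO and 166, 131 and 124 CPM in WT, a log2 fold change of 0.99 (SE 0.25, edgeR, adjusted p = 0.0466). Cd79b, the other signalling chain of the B cell receptor, stood at 895, 758 and 712 CPM against 368, 409 and 354 CPM in the same cells. With 2 Cd79a UMIs or more the H2-Ob difference was 0.32 and not called, and it was 0.66 and not called in Cd79a+ cells without a T cell receptor or CD3 UMI.

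The ratio of H2-Ob to H2-Oa UMIs, taken within a library, joins the H2-Oa and H2-Ob differences given above and is no further result. With 0.5 UMI added to each gene, Foxp3+ cells held 15.2, 28.2 and 11 H2-Ob UMIs per H2-Oa UMI in KO and 1.00, 1.30 and 0.967 in WT. Cd79a+ cells held 14.7, 7.71 and 13.4 in KO and 1.73, 1.61 and 0.837 in WT. Other T cells held 5.45, 9.05 and 6.52 in KO and 4.56, 4.36 and 3.58 in WT. No library of the 2 genotypes overlapped in these sets (exact two-sided permutation test, p = 0.1 each, the smallest that 3 against 3 allows, adjusted p = 0.400 over 20 ratios). None passed after adjustment, and the share of all gene pairs without overlap is not given here. In other T cells H2-Oa itself overlapped between genotypes, whereas H2-Ob did not, like 50.1% of the genes tested there.

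H2-DMa, the alpha chain of the exchange factor, was the highest of the 5 in other T cells. It stood at 35.7, 33.5 and 38.7 CPM in KO and 23.1, 23.3 and 25 CPM in WT, with no overlap. The log2 fold change was 0.68 (SE 0.08, edgeR, adjusted p = 0.00157). It was 0.51 over cells with at least 10% ribosomal UMIs (edgeR, adjusted p = 0.0181) and 0.64 over cells under 10% (edgeR, adjusted p = 0.123). After thinning, 4.89% ± 0.443 of other T cells had an H2-DMa UMI in KO and 3.17% ± 0.215 in WT (SD, n = 3 each, exact permutation test, p = 0.1, adjusted p = 0.357). Thinning left out 1148 shallower cells in KO and 2248 in WT, and unthinned shares were 13.3% ± 1.43 and 7.77% ± 1.78 (SD, n = 3 each). In Foxp3+ cells H2-DMa stood at 40.9, 30.5 and 35.1 CPM in KO and 22.8, 30.6 and 29.7 CPM in WT, and the difference of 0.36 did not pass (SE 0.18, edgeR, adjusted p = 0.266). In Cd79a+ cells the difference was 0.66 (SE 0.25, edgeR, adjusted p = 0.199).

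**Figure D2:**
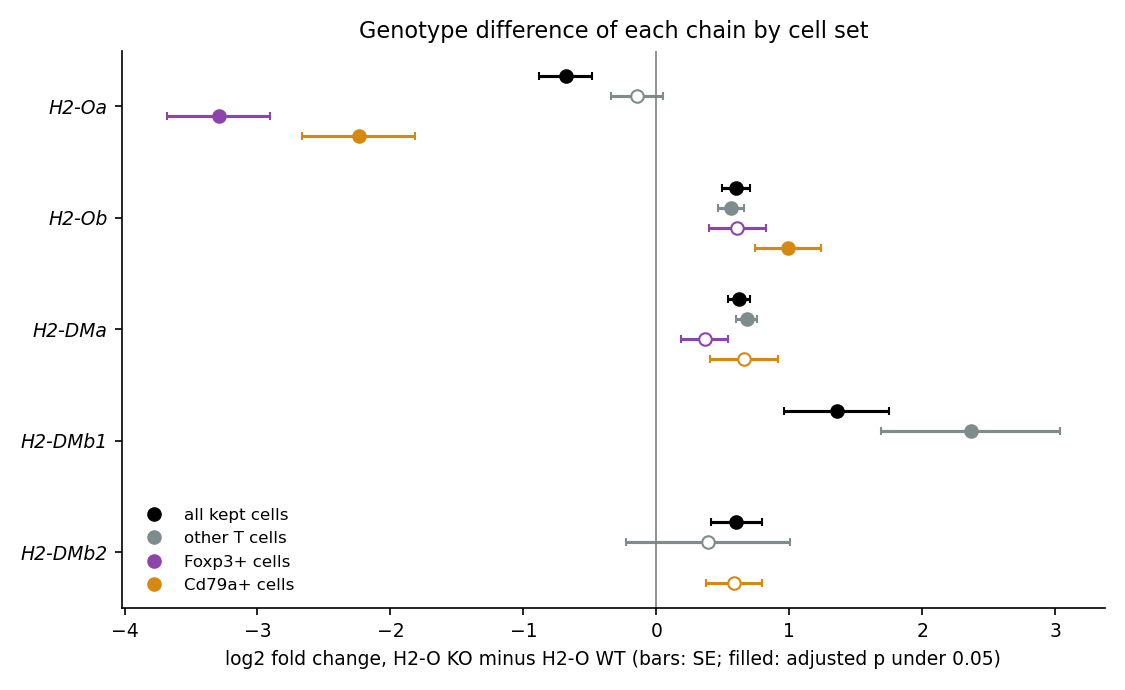
Log2 fold change of each chain, KO minus WT (x axis), with its SE from edgeR, by cell set; filled points have an adjusted p under 0.05 and untested chains have no point. H2-Oa was lower in Foxp3+ (-3.29) and Cd79a+ cells (-2.24), whereas the values of the other chains lay between 0.36 and 2.37.

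H2-DMb1 and H2-DMb2, the alternative partners of H2-DMa, were scarce in T cells. H2-DMb1 stood at 1.69, 0.860 and 4.12 CPM in other T cells of KO and 0.556, 0.149 and 0.780 CPM in WT. Its log2 fold change was 2.37 (SE 0.67, edgeR, adjusted p = 0.0212), and in all kept cells it was 1.36 (SE 0.39, edgeR, adjusted p = 0.0243). The call in all kept cells was lost without KO replicate 3, WT replicate 1 or WT replicate 2 (edgeR, adjusted p = 0.0729, 0.0872 and 0.0738) and over cells with at least 10% ribosomal UMIs (edgeR, adjusted p = 0.139). The WT values rest on 4, 3 and 11 UMIs. Most of the RNA came from few cells: 41 of the 26642 other T cells, those with 10 Cd74 UMIs or more, held 70.3% of its UMIs. The same cells held 42.2% of H2-DMb2, 3.96% of H2-DMa and 0.628% of H2-Ob. Dendritic cell genes were unevenly placed in them: they held 86.5% of Cd209a UMIs, 75% of Clec9a, 52% of Itgax, 44.1% of Flt3, 38.5% of Siglech, 17.8% of Zbtb46 and none of the 44 of Xcr1. Of the 41 cells, 19 also held a T cell receptor or CD3 UMI. Per library there were 10, 7 and 13 such cells in KO, of 6971, 3336 and 5391 other T cells. In WT there were 3, 2 and 6, of 2316, 4185 and 4443. They held 0.186%, 0.133% and 0.389% of the UMIs of other T cells in KO and 0.166%, 0.00862% and 0.196% in WT, so the genotypes overlapped. Without these 41 cells H2-DMb1 no longer reached the low-count filter and was not tested. It then stood at 0.447, 0.369 and 1.05 CPM in KO and 0.279, 0.149 and 0.284 CPM in WT, from 42 and 9 UMIs. The genotypes did not overlap in these few UMIs, as for 50.1% of the genes tested over all other T cells. Leaving out KO replicate 3, WT replicate 1 or WT replicate 2 ended the call in other T cells (edgeR, adjusted p = 0.0576, 0.0650 and 0.0656).

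H2-DMb2 did not pass in other T cells, at 1.25, 0.430 and 1.98 CPM in KO and 1.25, 0.298 and 1.70 CPM in WT (log2 fold change 0.39, SE 0.62, edgeR, adjusted p = 0.665). In all kept cells it was higher in KO by 0.60 (SE 0.19, edgeR, adjusted p = 0.0362), a call lost in 8 of 16 repeats. DESeq2 gave an adjusted p of 0.0566, library totals 0.0650, cells with at least 2000 UMIs 0.0997 and cells with at least 10% ribosomal UMIs 0.163. Leaving out KO replicate 1 or 2 or WT replicate 1 or 2 gave edgeR adjusted p-values of 0.0727 to 0.133. Of 545 H2-DMb2 UMIs in all kept cells, 404 lay in Cd79a+ cells. The 10 B cell genes stood at 49.7 to 84.8 CPM in KO and 29.3 to 49.99 CPM in WT over all kept cells, and their part in this difference was not tested. In Cd79a+ cells H2-DMb2 stood at 475, 416 and 296 CPM in KO and 276, 303 and 229.7 CPM in WT (log2 fold change 0.58, SE 0.21, edgeR, adjusted p = 0.161). Neither beta chain had enough UMIs for a test in Foxp3+ cells, where H2-DMb1 had 11 and H2-DMb2 10 in all 6 libraries together.

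The order of the chains depended on the cells. In other T cells the mean CPM over 6 libraries ran from H2-DMa (29.9) and H2-Ob (23.5) to H2-Oa (4.36), H2-DMb1 (1.36) and H2-DMb2 (1.15). These are UMI levels from 5' tags, 1 per molecule, and so need no correction for length. The first 2 steps of that order held in 6 of 6 libraries and the third in 5. Over both genotypes together the 2 beta chains could not be told apart (exact sign-flip test, p = 0.938). Their order turned with genotype, at 0.739, 0.517 and 0.485 H2-DMb2 UMIs per H2-DMb1 UMI in KO and 2.11, 1.86 and 2.13 in WT. In Cd79a+ cells H2-DMb2 was first at 333 CPM, above H2-Ob (200.1) in 6 of 6 libraries, followed by H2-DMa (186), H2-Oa (64.4) and H2-DMb1 (30.6). H2-Ob and H2-DMa could not be told apart there (exact sign-flip test, p = 0.656). H2-Oa was above H2-DMb1 in 3 of 6 libraries, those of WT (exact sign-flip test over both genotypes, p = 0.312). In WT H2-Oa stood at 92.0, 80.7 and 149 CPM and H2-DMb1 at 18.4, 40.3 and 18.6 CPM. In KO H2-Oa stood at 20.6, 32.6 and 11.4 CPM and H2-DMb1 at 37.8, 57.1 and 11.4 CPM, so their order depended on genotype. No step among 20 passed after adjustment, the smallest adjusted p that 6 libraries gave being 0.104.

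All 5 chains were higher in Cd79a+ than in other T cells in 6 of 6 libraries. The mean difference on the log2(CPM + 1) scale was 7.30 ± 0.73 for H2-DMb2, 3.73 ± 1.39 for H2-DMb1, 3.13 ± 1.30 for H2-Oa, 2.97 ± 0.38 for H2-Ob and 2.57 ± 0.30 for H2-DMa (SD, n = 6). Each reached the smallest p that 6 libraries allow (exact two-sided sign-flip test, p = 0.031, adjusted p = 0.0781 over 15 contrasts), so none passed after adjustment. In C1qb+ cells H2-DMb1 was higher than in other T cells in 6 of 6 libraries, by 3.65 ± 1.86 (SD, n = 6, exact sign-flip test, p = 0.031, adjusted p = 0.0781). H2-DMa was higher in 5 of 6, by 0.87 ± 1.69 (SD, n = 6, exact sign-flip test, p = 0.219, adjusted p = 0.410).

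**Figure D3:**
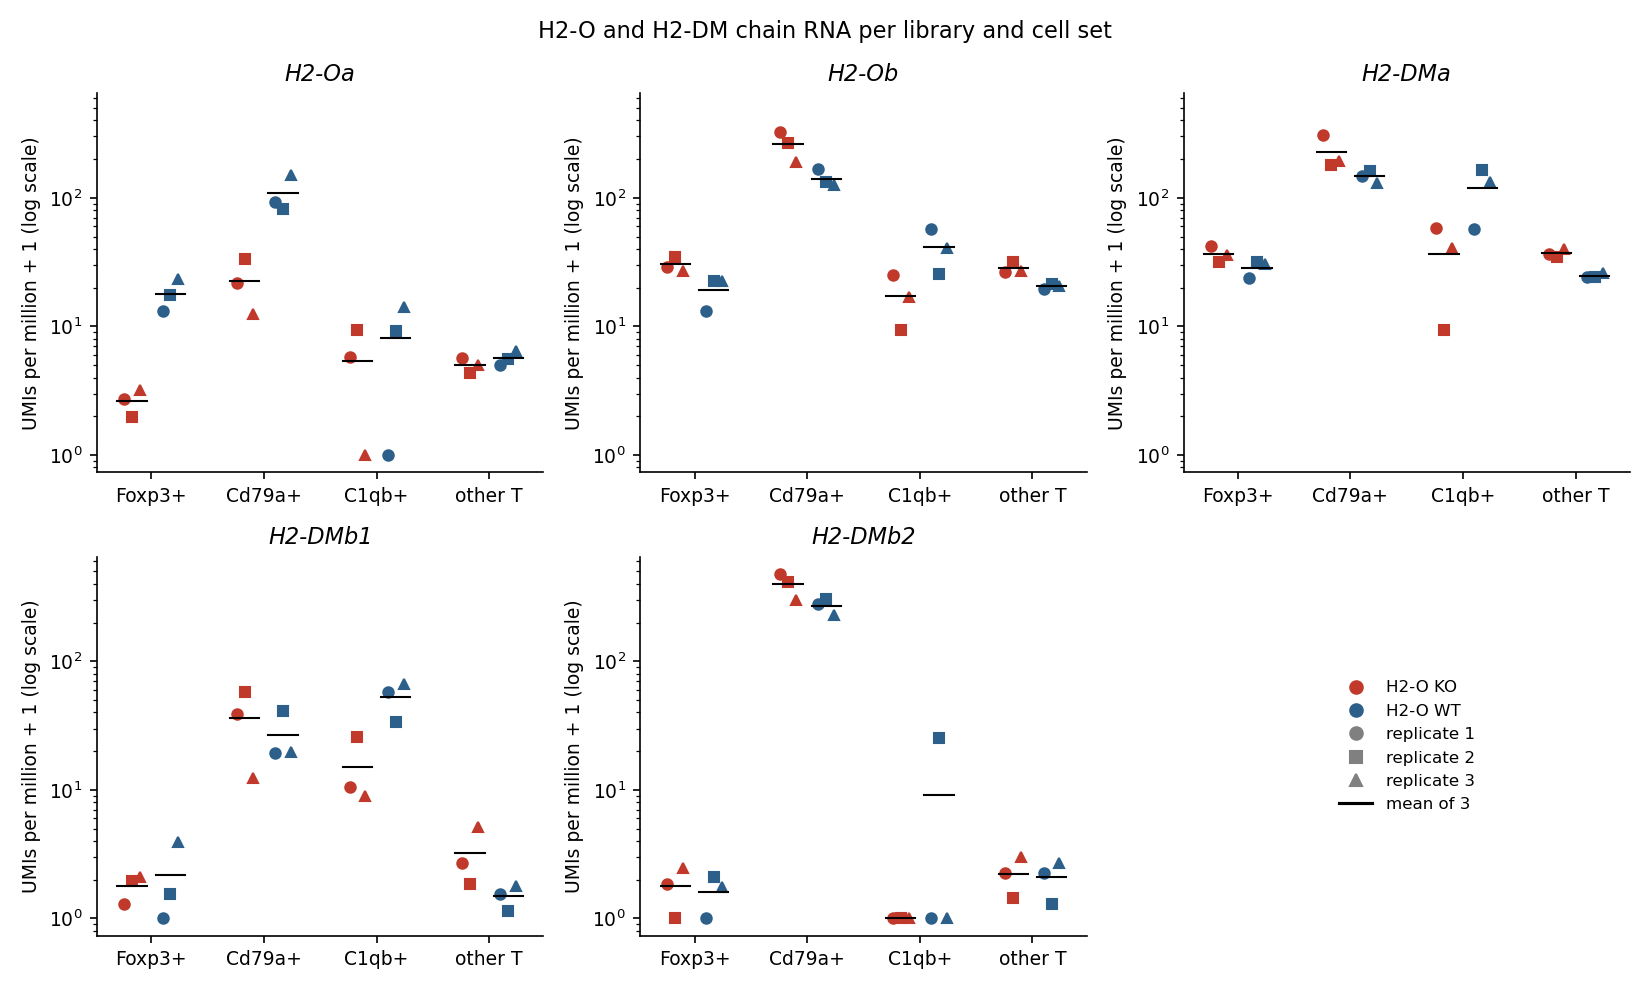
CPM plus 1 (y axes, log scale) of the 5 chains in Foxp3+, Cd79a+, C1qb+ and other T cells, 1 point per library with the mean of 3 as a line. H2-DMb2 stood at 229.7 to 475 CPM in Cd79a+ cells and was at 0 in C1qb+ cells of every library but WT replicate 2.

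The beta chains of H2-DM changed places between Cd79a+ and C1qb+ cells. Summed over libraries, there were 10.4 H2-DMb2 UMIs per H2-DMb1 UMI in Cd79a+ cells and 0.176 in C1qb+ cells, where H2-DMb2 had 3 UMIs, all in 1 library, and H2-DMb1 had 17. A count of 0 allows H2-DMb2 levels of up to 14.4 to 84.7 CPM in the C1qb+ cells of those 5 libraries, from counting error alone. The log2 ratio was higher in Cd79a+ cells in 6 of 6 libraries, by 5.55 ± 1.24 (SD, n = 6, exact sign-flip test, p = 0.031, adjusted p = 0.0536 over 12 contrasts). Other T cells lay between, with 0.739, 0.517 and 0.485 H2-DMb2 UMIs per H2-DMb1 UMI in KO and 2.11, 1.86 and 2.13 in WT (exact two-sided permutation test, p = 0.1, adjusted p = 0.400). No member reached the low-count filter in C1qb+ cells, where 0.156% of 1926 genes were called between genotypes, 0.104% as lower in KO. H2-Oa had 2 UMIs there in each genotype, and H2-DMa stood at 57.8, 8.34 and 39.9 CPM in KO and 56.5, 163 and 132 CPM in WT. T cell genes stood higher in KO in C1qb+ cells, and their part in these values was not tested.

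Each member was also set against 9 B cell genes other than Cd79a. Cd79a+ cells included T cells, and the sets were chosen by Cd79a. The 10 B cell genes stood at 6.25 to 11.1 CPM in other T cells and 2557 to 5784 CPM in Cd79a+ cells. By that choice the ratio rises for a gene not confined to B cells, so its tests do not show where the RNA came from. The part of free RNA in the T cell counts was not tested. Per UMI of the 9 genes there were 0.0669 H2-Ob UMIs in Cd79a+ cells and 3.09 in other T cells. For H2-DMa the values were 0.0615 and 4.01, and for H2-Oa 0.0165 and 0.562. The log2 ratio was higher in other T cells in 6 of 6 libraries, by 5.43 ± 0.65 for H2-Ob, 5.84 ± 0.76 for H2-DMa, 4.98 ± 1.87 for H2-Oa and 3.40 ± 2.40 for H2-DMb1 (SD, n = 6, exact sign-flip test, p = 0.031, adjusted p = 0.0547 over 7 genes). H2-DMb2 behaved otherwise, at 0.109 UMIs in Cd79a+ cells and 0.146 in other T cells, a difference of 0.10 ± 1.28 (SD, n = 6, exact sign-flip test, p = 0.844).

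**Figure D4:**
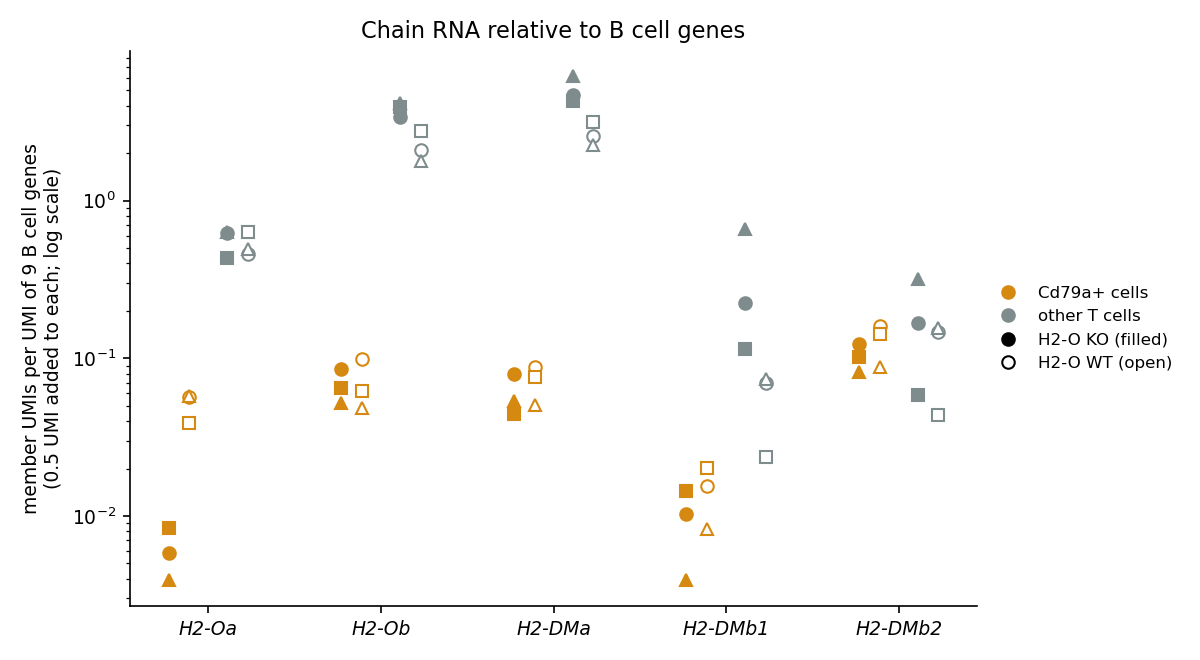
Member UMIs per UMI of 9 B cell genes (y axis, log scale) in Cd79a+ and other T cells, 1 point per library. H2-Oa, H2-Ob, H2-DMa and H2-DMb1 were higher in other T cells in 6 of 6 libraries, and H2-DMb2 in 3 of 6. The sets were chosen by Cd79a, so the ratio rises by that choice for a gene not confined to B cells.

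The other genes of the class II pathway were read from a list of 15. In all kept cells 8 of 15 rose in KO and none fell, where 15.9% of all genes were called higher and 19% lower, with a median log2 fold change of 0.33 beside 0.01 over all genes tested. They included the class II chains H2-Aa (0.95, SE 0.20, edgeR, adjusted p = 0.00582) and H2-Ab1 (1.02, SE 0.24, edgeR, adjusted p = 0.0104), and the invariant chain Cd74 (0.87, SE 0.17, edgeR, adjusted p = 0.00414). Ifi30, which encodes the lysosomal thiol reductase GILT, rose by 0.54 (SE 0.08, edgeR, adjusted p = 0.00214). The B cell list stood at 49.7 to 84.8 CPM in KO and 29.3 to 49.99 CPM in WT over the same cells, and its part in these rises was not tested.

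In other T cells 4 of 14 tested rose and 1 fell, with a median of 0.39 beside 0.00. With 35.8% of all genes called there, this count does not set the list apart. The risers were Ifi30 (0.58), the RFX subunits Rfxank (0.41) and Rfxap (0.38) and the protease Ctss (0.29), and the third RFX subunit, Rfx5, fell by 0.32 on the log2 scale (edgeR, adjusted p = 0.0417). The class II chains and Cd74 did not pass there, and Ciita, the master activator of the pathway, stood at 0.06 (SE 0.83, edgeR, adjusted p = 0.965). In Foxp3+ cells 0 of 9 tested were called by edgeR, and none had an unadjusted p under 0.05. In Cd79a+ cells 3 of 9 rose, where 0.797% of all genes were called higher, with a median of 0.71 beside 0.00. The B cell list was also higher in KO in these cells, at the CPM given above, and its part in these rises was not tested. In C1qb+ cells Cd74 was the single one of 8 tested that was called, and it fell by 1.01 on the log2 scale (SE 0.18, edgeR, adjusted p = 0.0174). T cell genes were higher in KO in C1qb+ cells, at the CPM given above, and their part in this fall was not tested.

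Among 5 genes that lie between the members, 3 rose in other T cells, where 16.3% of all genes were called higher in KO. Psmb8 (0.52, SE 0.08, edgeR, adjusted p = 0.00197) and Psmb9 (0.44, SE 0.09, edgeR, adjusted p = 0.00589) encode immunoproteasome subunits, and Tap2 (0.21, SE 0.07, edgeR, adjusted p = 0.0430) a subunit of the peptide transporter. Brd2, which overlaps H2-DMa on the other strand, stood at -0.08 (SE 0.08, edgeR, adjusted p = 0.501), and Tap1 at 0.12 (SE 0.07, edgeR, adjusted p = 0.231). In Foxp3+ and Cd79a+ cells none of the 5 was called by edgeR. In Foxp3+ cells Psmb8 alone had an unadjusted p under 0.05, and in Cd79a+ cells Psmb8, Psmb9 and Tap1 did.

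The genes most alike to each chain were found by Pearson's r of log2(CPM + 1) over 24 points, 6 libraries by 4 sets, among 9535 genes with a mean of at least 5 CPM. The points share libraries and sets of unequal depth, and r is given as a description. Among the genes most like H2-DMb2 were Bcl11a (0.960), Scd1 (0.960), Siglecg (0.960) and Cd24a (0.958), several of them known B cell genes. H2-Ob was most like Cyb561a3 (0.941), 2010309G21Rik (0.928), Il4i1 (0.926), Bcar3 (0.925) and Fcer2a (0.925). Among those most like H2-DMb1 were Ly86 (0.932), Syk (0.912), H2-Ab1 (0.909) and Spi1 (0.906), which include genes of myeloid cells. H2-DMa was most like Pkig (0.894), Pkib (0.884), Cd180 (0.883), H2-Ob (0.874) and Prkcb (0.850). H2-Oa had the weakest matches, Acsf2 (0.839), Baz2b (0.792), Lrrk2 (0.792), Dmxl1 (0.772) and Rhob (0.768), and its r with H2-Ob was 0.554. The points mix KO and WT libraries, and H2-Oa was lower in KO in Foxp3+ and Cd79a+ cells. It also had 4 UMIs in C1qb+ cells of all 6 libraries together. Its r values thus join genotype with cell set, and the part of genotype in them was not tested.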

How the data were processed

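Spleen CD4 T cells of 3 H2-O KO mice and 3 H2-O WT controls were profiled by 10x Genomics 5' single-cell RNA-seq (kit v1.1), 1 library per mouse. The authors aligned the reads to mm10 with Cell Ranger 6.1.2, per the labels, and deposited raw UMI counts per gene for each called cell, with no normalization; the strand and intron settings are not given in the sources used here. As in the study's methods, cells were kept from 200 genes upwards, up to 12000 UMIs and up to 5% mitochondrial UMIs. Doublets were limited by the UMI maximum alone.

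UMIs were summed per library and cell set, and genotypes were compared with edgeR 4.0.16 in R 4.3.3 (quasi-likelihood test, TMM factors, low-count filter of filterByExpr, Benjamini-Hochberg adjustment over all genes tested, threshold 0.05). Differences between sets used library as a block. Single values were tested by exact permutation over libraries. CPM were formed with 1 added before the log2, and ratios with 0.5 UMI added. The fits were tested on simulated data. Alternatives were DESeq2 1.42.0, other scalings and filters, other cells, the replicate number as a block and each library left out. Cells were thinned to 1500 UMIs for shares.

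The members and lists were chosen with earlier results of these data known. The rule for named genes took the members, 15 pathway genes, 5 neighbouring genes and the 5 genes most alike to each member, of which some are not reported here; BC051537, Cd79b, Ms4a1, Cd209a and Itgax were named after their values were seen, as were Clec9a, Flt3, Siglech, Zbtb46 and Xcr1. The comparison of Foxp3+ with other T cells, the splits by Treg markers, by single genes and by Cd74, the cells under 10% ribosomal UMIs and the leaving out of 1 cell with many H2-Oa UMIs were chosen after seeing the data. Each library is 1 mouse, and intervals and limits cover counting error only.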

Additional observations from a re-analysis of the deposited data

Results flagged for a closer look

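The genotype difference in H2-Oa was not alike in Foxp3+ and other T cells. Its log2 fold change, H2-O KO minus H2-O WT, was -3.29 in Foxp3+ cells and -0.15 in other T cells, and the difference of these, -3.17 (SE 0.41), passed edgeR's quasi-likelihood test with an adjusted p of 0.00219 over 11088 genes. The contrast was added after the data were seen, and without H2-O KO replicate 1 it was -3.09 with an adjusted p of 0.102 (edgeR), and 0 genes passed, with 504 at an unadjusted p under 0.05. H2-Oa was lower in all 3 H2-O KO libraries than in any H2-O WT library among Foxp3+ cells, whereas in other T cells the libraries overlapped. H2-Oa RNA in Foxp3+ cells of H2-O KO rests on 14 UMIs, and that of H2-O WT on 68.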

How the results depend on the processing

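Of 609 repeats of the reported results, 484 kept their direction and side of the threshold or, for counts of called genes, stayed within 1.5 times, among them every repeat of H2-Oa in Foxp3+ cells and of H2-Ob in other T cells. Sign-flip tests over 5 libraries cannot go below 0.0625, so the unadjusted p of the 4 members higher relative to B cell genes passed the threshold in no such repeat, by construction. DESeq2 gave no adjusted p for H2-Oa in Foxp3+ and Cd79a+ cells.

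H2-Oa in all kept cells was no longer called with up to 10% mitochondrial UMIs (-0.56, adjusted p = 0.0508) or when a library was left out (-0.81 to -0.50, lost without H2-O KO replicate 2 or 3 or H2-O WT replicate 3). In Cd79a+ cells it ranged from -2.61 to -1.84 over libraries left out. Its difference between Cd79a+ and other T cells passed with 2 Cd79a UMIs (-2.67), and that between Foxp3+ and other T cells ranged from -3.43 to -3.05. H2-Ob in Cd79a+ cells lost its call with DESeq2 (1.00), library totals (0.99), the replicate block (0.89), 2 UMIs (0.32), all called cells (0.91), at least 2000 UMIs (0.89), no T cell receptor UMI (0.66) and all libraries but H2-O KO replicate 3 left out in turn (0.78 to 1.15). H2-DMa lost its call over cells under 10% ribosomal UMIs, in all kept cells (0.45) and other T cells (0.64).

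Signs turned, none of them called, for H2-DMb2 in Cd79a+ cells with 2 UMIs (-0.082), in other T cells without H2-O KO replicate 3 or H2-O WT replicate 2 (-0.15 to 1.10), and relative to B cell genes over cells with at least 10% ribosomal UMIs (-0.12) or with a library left out (-0.27 to 0.46). They also turned for the H2-Ob difference between Foxp3+ and other T cells without the low-count filter (-0.0090), with 2 UMIs (-0.046) and over libraries left out (-0.029 to 0.16).

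Counts of called genes moved more. All kept cells gave 4353, with 2607 at 2000 UMIs or more, 1182 at 10% ribosomal UMIs or more, 1480 under 10% and 2571 to 5308 over libraries left out. Other T cells gave 4355, with 2706, 1380, 1099 and 2486 to 5398 in the same order. Foxp3+ cells gave 267, with 177 by DESeq2, 568 without the low-count filter, 500 with the replicate block, 13 with 2 UMIs, 596 in all called cells, 21 at 2000 UMIs, 1098 at 10% mitochondrial UMIs, 21 at 10% ribosomal UMIs and 32 to 232 over libraries left out. Cd79a+ cells gave 56, with 171, 3, 34, 128 and 36 for the filter, 2 UMIs, 2000 UMIs, mitochondrial and ribosomal settings, 1 without a T cell receptor UMI and 0 to 50 over libraries left out (edgeR; 482 genes had an unadjusted p under 0.05 where 0 were called, without H2-O WT replicate 2). C1qb+ cells gave 3, with 1 by DESeq2, 23 without the filter, 1 with 2 UMIs, 14 in all called cells, 5 at 2000 UMIs, 2 to 11 over libraries left out and 0 without a T cell receptor UMI (edgeR; 16 with an unadjusted p under 0.05). The Cd79a+ contrast with other T cells gave 13, with 5 at 10% ribosomal UMIs and 8 to 28 over libraries left out. The Foxp3+ contrast gave 1, with 22 without the filter, 3 with 2 UMIs and 0 to 55 over libraries left out (edgeR; 504 with an unadjusted p under 0.05 where 0 were called). With library totals in place of TMM, 34.2% and not 45.5% of calls in all kept cells were higher in H2-O KO, 32.5% and not 45.5% in other T cells, and 15.8% and not 30.3% in Foxp3+ cells. The cause of these moves was not tested.

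Deviations of same-numbered libraries in other T cells correlated at -0.16, 0.18 and 0.46. H2-O KO replicates 2 and 3 matched best with the H2-O WT library of the same number in other T, Foxp3+ and Cd79a+ cells. H2-O KO replicate 1 matched best with H2-O WT replicate 2 in other T and Foxp3+ cells, and with H2-O WT replicate 1 in Cd79a+ cells. Whether same-numbered libraries were handled together is not given in the labels and was not tested. With the replicate block H2-Ob in Cd79a+ cells was the single member to lose a call.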
